A study of Rattus norvegicus with 25 samples.

Results

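Probe set b6967 of the HuGChip, a microarray of probes complementary to bacterial 16S rRNA genes, is made up of 21 of the 4441 probes of 25 bases on the array. Its members are all probes whose name begins with b6967_, and the set was chosen by its detection, as the most fully detected of the 66 sets that the probe names define. Averaged over the 25 samples, 79.2% of its probes were above background, beside 73.4% of the 137 probes of set b6995, the next set, and 22.4% of all probes. That share chose the set, so it is a description with no test. Neither the labels nor the array tables pair a taxon with the set, and none is named here.

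The samples are faecal DNA of Wistar rats fed for 12 weeks on 1 of 4 diets, with 16S genes amplified over 35 PCR cycles. The PO diet held a control oil of equal energy (6 samples), A+PO the same oil with wheat aleurone, the innermost cell layer of the bran (6), LO linseed oil, which is rich in a plant omega-3 fatty acid (6), and A+LO linseed oil with aleurone (7). Every PO and LO sample was labelled with Cy3 and every A+PO and A+LO sample with Cy5, so the effects of aleurone and of dye cannot be told apart. The control-oil samples share 6 arrays and the linseed samples 7 other arrays, on slides of their own, so neither can the oil be told apart from the slide. The labels number the samples without saying that each comes from a separate rat, so p-values measure the spread between these samples. For aleurone and its interaction with oil, that is mainly the spread left after the array, fitted as a block, is allowed for. The labels give no age. For 4 A+LO samples the title and the column disagree on the number, and each is called by the LO sample it lies beside on its array (the A+LO sample beside LO 4).

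The 16S rRNA gene is found in all bacteria and alternates between stretches that are nearly alike across species and stretches that differ. A short probe against a variable stretch can bind amplicons of a narrow group of bacteria, and a single mismatch weakens binding by an amount that depends on its place. A spot's brightness therefore holds both the amount of matching amplicon and the affinity of the probe, and the levels of different probes are not abundances that can be set against each other.

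By the number that follows b6967_ in the name, the members fall into 5 groups of related sequences. There are 4 b6967_1 probes, 1 b6967_2 probe, 6 b6967_3 probes, 4 b6967_4 probes and 6 b6967_5 probes. The members hold 10 to 18 G or C bases of 25, with a median of 13.0, the same as the median of all probes. The b6967_3 probes hold 10 to 12, and the b6967_5 probes 14 to 18.

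Within a group many members are close variants of each other. Of the 42 pairs of members that share a group, 7 differ in a single base when aligned end to end, and the others in up to 11. Positions are counted from 1 at the 5′ end of the probe. In the pair b6967_1_1 and b6967_1_4 the change is G6A, in b6967_4_1 and b6967_4_4 it is C19T, and in b6967_5_4 and b6967_5_5 it is C20T. Among the b6967_3 probes, b6967_3_1 and b6967_3_4 differ by T3C, b6967_3_2 and b6967_3_3 also by T3C, b6967_3_3 and b6967_3_6 by C21T, and b6967_3_4 and b6967_3_5 by A24G. Members that differ so little can bind the same amplicons and are not separate evidence. Probes of other sets had at least 6 mismatches to any member when aligned end to end. Some pairs within a group differed by as many or more. Shifted stretches are shared with other sets, the longest being 17 bases, between b7009_4_1 and both b6967_3_1 and b6967_3_2, and between b6942_1_1 and b6967_5_2.

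Detection was counted where over 0.5 of a probe's spots, leaving out those the scanner software marks as outliers, were well above background. By that rule 13 members were detected in all 25 samples, beside 9.12% of all probes. They are the 6 b6967_3 probes, b6967_2_1, b6967_1_3, b6967_4_1 and b6967_5_1, b6967_5_2, b6967_5_4 and b6967_5_5. Another 7 members were detected in some samples and 1 in none. Both b6967_1_1 and b6967_4_4 were detected in 23 samples, b6967_4_2 in 19, b6967_1_2 in 12 and b6967_1_4 in 10. These counts depend on leaving out the marked spots. In PO 2, for example, b6967_1_1 was not detected by its kept spot of 148 intensity units, beside marked spots of 54622 and 39613. Probes b6967_4_3 and b6967_5_6 were each detected in 2 samples, PO 2 and A+PO 2, which share an array, and b6967_5_3 in 0. These last 3 members did not reach the minimum of 6 samples and were left out of the tests, which leaves 18 members.

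The single-base pairs held both like and unlike members. Probe b6967_1_1 was detected in 23 samples and its G6A variant b6967_1_4 in 10. In the b6967_3 pairs and in b6967_5_4 and b6967_5_5 both members were detected in all 25 samples.

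The number of detected members overlapped between all 4 diets. With linseed oil it ran from 15 to 18 in LO (median 16.0) and 13 to 17 in A+LO (median 16.0), with control oil from 15 to 18 in PO (median 18.0) and 16 to 19 in A+PO (median 17.5). The lowest count, 13, was in the A+LO sample beside LO 4, which also had the fewest detected probes of all 25 samples (576 of 4441). As mean shares these were 81.7% ± 6.33 for the PO diet (SD, n = 6), 82.5% ± 5.77 for A+PO (SD, n = 6), 77.0% ± 5.57 for LO (SD, n = 6) and 76.2% ± 6.73 for A+LO (SD, n = 7). Over all probes the shares stood at 25.1% ± 5.39, 24.8% ± 6.05, 21.4% ± 3.03 and 18.8% ± 2.87 in the same order and with the same n. A stricter rule, the mean signal over the mean plus 3 SD of the negative controls, gave the members a share of 70.5% over all samples. By that rule the members' share was 65.3% ± 12.5 for A+LO, 67.5% ± 9.24 for LO, 74.6% ± 13.0 for A+PO and 75.4% ± 9.72 for PO (SD). With the marked spots kept in the main rule, the share was 82.9% over all samples. It was then 77.6% ± 3.60 for A+LO, 81.0% ± 4.26 for LO, 87.3% ± 6.51 for A+PO and 86.5% ± 5.57 for PO (SD).

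A probe's 3 spots did not agree on every array. On the array of LO 4, the brightest and dimmest spot differed at least 10-fold for 10 of 15 detected members in LO 4 and for 10 of 13 in its A+LO partner. On the array of LO 11 this held for 6 of 16 members in LO 11 and 8 of 16 in A+LO 9. In every other sample it held for 0 to 3 members. The same arrays stood apart over all detected probes, with 51.3% and 50.3% of them at least 10-fold apart on the array of LO 4 and 19.6% and 23.1% on that of LO 11. Shares of a like size were also seen in A+PO 1 (19.1%), A+PO 5 (19.9%) and PO 5 (15.0%). Elsewhere the shares ran from 0% to 10.3%.

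Leaving out the marked spots could keep the odd one. For b6967_3_1 in LO 11 the spots read 183977, 5808 and 193084 intensity units, and the kept spot was the dim one. In A+LO 9, on the same array, they read 17297, 129 and 11468, and again only the dim spot was kept. For b6967_5_2 in the A+LO sample beside LO 4 they read 267896, 83.7 and 164571, with the dim spot kept. In all, 709 of the members' 1575 spots were marked. The saturation mark was read in 21 samples, where 0 of 1323 spots carried it. Bright members could still lie close together. In LO 9 the b6967_3 probes read 538100 to 570907, b6967_5_1 and b6967_5_4 549800 and 567092, and b6967_5_2 and b6967_5_5 635572 and 583882. Whether bright members were near an upper limit of signal was not tested. Because the odd spot could be kept, some results below were also computed with all 3 spots averaged and without the arrays of LO 4 and LO 11, both chosen after seeing the data. These were the tests, the mean levels of the 3 highest and 3 lowest members and the median rank percentile. The share of members detected, given above, was also computed without these arrays and with the marked spots kept. The ranks of groups and of single probes and the counts within arrays were not computed again. Whether the disagreement of spots accounts for any single value was not tested.

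The rank of a probe among the 4441 probes of its own sample, with 1 the brightest, needs no scaling between samples. The median member ranked from 182 to 572 in a sample, with a mean percentile of 93.2 ± 2.43 (SD, n = 25). By diet the percentile was 93.7 ± 1.09 for PO (SD, n = 6), 93.6 ± 1.13 for A+PO (SD, n = 6), 93.4 ± 3.02 for LO (SD, n = 6) and 92.4 ± 3.58 for A+LO (SD, n = 7). The 3 samples with the lowest values were LO 3 at rank 551, A+LO 1 at 558 and A+LO 9 at 572. LO 3 and A+LO 1 share an array, and A+LO 9 is on that of LO 11. At least 1 member ranked among the brightest 103 probes in every sample, and the best rank was 2, held by b6967_3_3 in LO 4.

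The b6967_3 probes took the highest ranks. Over all samples their median rank was 138, with 178 for PO, 76 for A+PO, 186 for LO and 114.5 for A+LO. The b6967_5 probes had a median rank of 262.5, the b6967_2 probe 368, the b6967_4 probes 587.5 and the b6967_1 probes 721.5. The b6967_5 probes were split: b6967_5_1, b6967_5_2, b6967_5_4 and b6967_5_5 had median ranks of 157 to 223, and b6967_5_3 and b6967_5_6 of 2801 and 2935. Since detection chose the set, these ranks are a description.

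Levels are given as scaled log2 levels, where 0 is the 75th percentile of the sample over the 405 probes detected in all 25 samples. The value that a dark probe takes on this scale differs between samples: the dimmest probe lay at -13.40 in LO 6 and at -6.57 in A+LO 1. A level near such a value says only that the probe was not well above background, and levels of undetected probes carry no order between samples.

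The 3 members with the highest mean level over all samples were b6967_3_4 at -0.17 ± 2.07, b6967_3_5 at -0.27 ± 0.92 and b6967_5_2 at -0.31 ± 1.57 (log2 level, SD, n = 25). Probe b6967_3_4 ran from -0.19 to 0.01 for PO (median -0.13), -0.16 to 0.31 for A+PO (median 0.07), -5.23 to 0.47 for LO (median 0.02) and -5.97 to 6.34 for A+LO (median -0.0039). The control-oil samples therefore lay within a narrow band, and the extremes were LO 3, A+LO 1 and the A+LO sample beside LO 4. In LO 3 the spots of b6967_3_4 read 302629, 6994 and 6954, with the bright one marked. The 6.34 of the A+LO sample beside LO 4 rests on 1 kept spot of 774972 beside marked spots of 1188 and 257692. With all spots averaged these 3 extremes became -3.47, -3.74 and 2.27. Probe b6967_3_5, its A24G variant, ran from -0.16 to 0.05 for PO (median -0.09), -0.73 to 0.37 for A+PO (median 0.05), -2.74 to 0.03 for LO (median -0.05) and -3.61 to 0.47 for A+LO (median 0.06). Both its low extremes, -2.74 and -3.61, came from the array of LO 4, and with all spots averaged they became -0.53 and -0.72. In LO 3 and A+LO 1 it stood at -0.51 and -0.21, beside -5.23 and -5.97 for b6967_3_4. Probe b6967_5_2 ran from -0.68 to 0.19 for PO (median -0.02), -1.86 to 0.21 for A+PO (median -0.32), -0.02 to 0.78 for LO (median 0.12) and -6.51 to 2.81 for A+LO (median -0.28). Its low extreme, also from the array of LO 4, became 0.37 with all spots averaged. The groups of all 3 probes overlapped.

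On the array of LO 3 and A+LO 1 most bright members were low in both dyes. There 5 of 6 b6967_3 probes stood below -4 in each sample, b6967_3_5 being the exception, and with all spots averaged b6967_3_4 too lay above -4 in both. Also below -4 in both samples were b6967_1_3 and 3 of the 4 b6967_5 probes that were detected everywhere, all but b6967_5_2. In A+LO 1 these b6967_3 levels, from -6.18 to -5.97, lay close to that sample's dimmest probe at -6.57, although each was detected. For b6967_3_6 in LO 3 the 3 spots agreed, at 5943, 5845 and 5964 intensity units. In LO 11 and A+LO 9 it was 3 of 6 b6967_3 probes, namely b6967_3_1, b6967_3_2 and b6967_3_3, whose levels ran from -6.80 to -6.29 in LO 11 and from -9.87 to -9.65 in A+LO 9. With all spots averaged these probes stood at -3.30, -5.39 and -4.12 in LO 11 and at -5.44, -8.22 and -6.13 in A+LO 9. In every other sample, the array of LO 4 included, 0 of 6 b6967_3 probes stood below -4.

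The 3 members with the lowest mean level were b6967_5_3 at -10.83 ± 1.99, b6967_5_6 at -10.59 ± 2.09 and b6967_4_3 at -10.49 ± 2.20 (log2 level, SD, n = 25), which were not well above background in 25, 23 and 23 samples. In raw intensity b6967_5_3 ran from 80.1 to 406 for PO (median 110), 68.4 to 124 for A+PO (median 84.4), 82.3 to 157 for LO (median 116) and 56.4 to 67.5 for A+LO (median 60.1). The median probe of a sample had a raw intensity of 58.9 to 513, beside local backgrounds of 40.0 to 91.5. In PO 2, where they were detected, b6967_4_3 read 3767 and b6967_5_6 read 1618, the highest values of both. No fold is given here for these 3 members, since nearly all their values are at background. Where they pass below without the filter on dim probes, the same limit holds.

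The comparison of LO with PO asks whether linseed oil went with another signal in rats without aleurone. None of the 18 tested members passed (limma with Benjamini-Hochberg adjusted p under 0.05 over 1153 probes), and 0% of all probes did. At an unadjusted p under 0.05 the counts were 0 of 18 members and 26 of 1153 probes. The median difference was -0.90 over members and -1.10 over all probes (log2, LO minus PO), and 14 of 18 members had a negative value. When each sample was instead scaled to the median of its 1153 tested probes (median scaling), the medians were 1.03 and 0.83, so both signs changed with the scaling. The smallest p belonged to b6967_1_2. It ran from -11.14 to -4.94 in PO (median -7.47) and from -12.18 to -6.59 in LO (median -11.24), and the groups overlapped. It was detected in 4 of 6 PO and 2 of 6 LO samples. The difference was -2.44 (SE 1.22, adjusted p = 0.756 by limma) and lay between -3.97 and -0.25 over the alternatives. Next was b6967_1_3 with -1.83 (SE 1.15, adjusted p = 0.756 by limma), with 4 of 6 LO values under the PO mean. It turned to 0.10 with median scaling.

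The same question with aleurone in both diets compares A+LO with A+PO. No member passed in limma after Benjamini-Hochberg adjustment, again beside 0% of all probes, and 3 of 18 members and 87 of 1153 probes had an unadjusted p under 0.05. The median difference was -0.49 over members and 0.68 over all probes (log2, A+LO minus A+PO). Over the alternatives the members' median stayed negative, from -2.56 to -0.074, while that of all probes ran from -1.40 to 2.75. Probe b6967_1_3 ran from -2.22 to -0.21 in A+PO (median -1.20) and from -8.56 to 0.04 in A+LO (median -3.002). It differed by -2.42 (SE 1.13, adjusted p = 0.567 by limma), with 5 of 7 A+LO samples below the A+PO mean. Probe b6967_3_1 ran from -0.02 to 0.37 in A+PO (median 0.13) and from -9.81 to 0.07 in A+LO (median -0.09), with all 7 A+LO samples below the A+PO mean. The difference was -2.57 (SE 1.23, adjusted p = 0.567 by limma). A+LO 1 stood at -6.12 and A+LO 9 at -9.81, and the other 5 A+LO samples lay between -1.01 and 0.07. The third was b6967_3_2, chosen after its values were seen, with -2.59 (SE 1.26, adjusted p = 0.567 by limma). Without the filter on dim probes 6 members passed in limma, beside 70.5% of all 4441 probes. Lower were b6967_1_3, b6967_3_1 and b6967_3_2. Higher were b6967_1_4, b6967_5_3 and b6967_5_6, of which b6967_5_3 was detected in 0 samples.

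The comparison of A+PO with PO asks what went with aleurone under the control oil. The samples of both groups lie in pairs on the same 6 arrays. Here 5 of 18 members were lower in A+PO and 0 higher (limma with Benjamini-Hochberg adjustment), beside 66.1% of all probes, every one of them lower. The median difference was -0.87 over members and -1.98 over all probes (log2, A+PO minus PO). Of the 18 members, 14 lay above the median probe. Direction depends on the scaling: with median scaling 9 members were higher and 0 lower, beside 27.5% of all probes past the test, and the median probe stood at 0.86.

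The 2 largest differences past the test were in a single-base pair. Probe b6967_4_4 ran from -9.46 to -1.27 in PO (median -6.55) and from -12.16 to -2.67 in A+PO (median -9.45), with overlap between the groups. Within arrays it was lower in 6 of 6, and the difference was -2.45 (SE 0.848, adjusted p = 0.0144 by limma), or -0.47 relative to the median probe. Probe b6967_4_1, which differs by the change C19T, ran from -3.17 to -0.05 in PO (median -0.89) and from -5.03 to -1.88 in A+PO (median -3.22). Again the groups overlapped and all 6 arrays gave a lower value. The difference was -2.16 (SE 0.578, adjusted p = 0.00298 by limma), or -0.17 relative to the median probe. With median scaling these values turned to 0.40 and 0.69, and b6967_4_4 also turned to 0.10 with quantile scaling over all samples.

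The other 3 members past the test were named after their values were seen. Probe b6967_2_1 differed by -2.11 (SE 0.851, adjusted p = 0.0311 by limma), b6967_1_2 by -2.11 (SE 0.610, adjusted p = 0.00462) and b6967_1_4 by -1.71 (SE 0.765, adjusted p = 0.0494). All 6 arrays gave a lower A+PO value for each of them. Each turned positive with median scaling, to 0.73, 0.74 and 1.14, and b6967_1_2 and b6967_1_4 also with loess and with quantile scaling over all samples. A lower A+PO value on all 6 arrays was also seen for b6967_5_3, b6967_4_3 and b6967_5_6, detected in 0, 2 and 2 samples. Such a count, here and for the pair above, is therefore also reached at background. Both b6967_1 probes were detected on both dyes of few arrays, in 4 of 6 for b6967_1_2 and 2 of 6 for b6967_1_4, so their values are in part levels at background.

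The differences of the b6967_3 probes ran from -0.07 to 0.27, with a lowest adjusted p of 0.747 (limma), and relative to the median probe from 1.91 to 2.25. The 4 tested b6967_5 probes ran from -1.05 to -0.42, or 0.93 to 1.56 relative to the median probe. The b6967_3 probes are among the 405 that set the 0 of the scale, and in these groups their levels mostly lay near it. Their differences are thus measured against a reference that they help to set, and how much this adds to their small size was not tested. With median scaling all 6 b6967_3 probes were higher past the test, by 2.77 to 3.11, beside 27.5% of all probes past it. Ranks use no scaling, but near the top many ranks span a small difference in level. Probe b6967_3_1, for example, had rank 220 at -0.14 in PO 6 and rank 35 at 0.10 in A+PO 6. The median rank of the b6967_3 probes was closer to the top in A+PO than in PO on 6 of 6 arrays, with 94 against 200.75 as the median over arrays. For b6967_1_3, b6967_5_4 and b6967_5_5 the rank was farther from the top in A+PO on 6 of 6 arrays, with medians of 262.5 against 172, 187 against 104.5 and 220 against 123. For b6967_4_4 it was farther on only 2 of 6, with 577.5 against 581, and for b6967_4_1 on 5 of 6, with 369.5 against 331.5. These ranks were not tested.

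The count of 5 moved with the fit. With the number shared by the pair as a fixed replicate block 9 members were lower, including the 5, beside 79.6% of all probes. With all spots averaged it was also 9, including the 5, beside 78.6%, and without the arrays of LO 4 and LO 11, which hold no sample of this comparison but add to its estimate of spread, it was 9 beside 79.9%. With the 75th percentile taken over all probes 2 members, b6967_3_4 and b6967_3_5, were higher and 0 lower, beside 11.7% past the test. With loess between the dyes of each array only b6967_4_1 passed, at -1.03 (adjusted p = 0.0462 by limma), beside 7.11% of all probes. Without the array as a block 0 members and 0 probes passed in limma. Leaving out A+PO 4 left 2 members, beside 50.5% of all probes. Leaving out PO 1, 4, 5 or 6 left 3, beside 46.2%, 50.6%, 56.3% and 55% in that order, and so did leaving out A+PO 1, 3 or 5, beside 65%, 57.3% and 50.4%.

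The comparison of A+LO with LO asks the same under linseed oil. No member passed in limma after Benjamini-Hochberg adjustment, beside 4.94% of all probes, and 3 of 18 members and 303 of 1153 probes had an unadjusted p under 0.05. The median difference was -0.45 over members and -0.24 over all probes (log2, A+LO minus LO), and with median scaling these turned to 0.87 and 1.08. The smallest p was that of b6967_2_1. It ran from -4.91 to 0.41 in LO (median -1.04) and from -9.64 to 0.95 in A+LO (median -3.17), and the groups overlapped. It was lower in 4 of 6 arrays, with a difference of -2.64 (SE 0.844, adjusted p = 0.0575 by limma). Its lowest value, in A+LO 9, rests on the kept dim spot of 186 units beside marked spots of 154798 and 122751. Next was b6967_1_3, from -5.10 to 0.18 in LO (median -1.76) and from -8.56 to 0.04 in A+LO (median -3.002), with -1.58 (SE 0.571, adjusted p = 0.0826 by limma) and lower in 5 of 6 arrays. Both kept a negative sign under all alternatives run. The third, chosen after its values were seen, was b6967_4_1 with -1.33 (SE 0.573, adjusted p = 0.142 by limma).

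Here the treatment of spots changed the calls. With all spots averaged 4 members were lower (limma with Benjamini-Hochberg adjustment), beside 36.2% of all probes: b6967_4_1 by -1.69 (adjusted p = 0.00164), b6967_1_3 by -1.63 (0.00117), b6967_2_1 by -1.54 (0.00926) and b6967_4_4 by -1.44 (0.0309). Without the arrays of LO 4 and LO 11 it was again 4, beside 38.9%: b6967_4_1 by -2.15, b6967_2_1 by -1.95, b6967_4_4 by -1.64 and b6967_1_3 by -1.15. Leaving out LO 4 alone, or the A+LO sample on its array, gave 5 lower members, beside 43.7% and 42.2% of all probes, and leaving out A+LO 1 gave 1, beside 9.11%. With the 75th percentile over all probes 7 members were lower, beside 52.2%. With median scaling 3 were higher, namely b6967_1_2, b6967_1_4 and b6967_3_4, beside 42.1%. The b6967_3 probes had differences of -0.90 to 0.85, and their median rank was closer to the top in A+LO on 3 of 6 arrays.

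The interaction, the aleurone difference under linseed oil less that under control oil, asks whether the aleurone difference depended on the oil. A single member, b6967_1_2, passed with a positive value (limma with Benjamini-Hochberg adjustment), beside 28.2% of all probes, all of them positive. The median was 0.08 over members and 1.51 over all probes, and 15 of 18 members lay below the median probe. As for A+PO against PO, this count was not set beside probes of like brightness and is a description only. Probe b6967_1_2 had an interaction of 3.13 (SE 0.858, adjusted p = 0.0126 by limma), or 1.62 relative to the median probe. In A+PO it ran from -12.57 to -7.38 (median -9.64) and in A+LO from -11.71 to -6.14 (median -10.49). It was detected in 4 of 6 A+PO, 2 of 6 LO and 2 of 7 A+LO samples, and in both dyes on 1 of 6 linseed arrays, so most of its linseed values are levels at background, which differ between samples with the scaling.

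Other settings gave the interaction other members or another sign. The value of b6967_1_2 was -0.55 with quantile scaling over all samples, -0.30 with quantile scaling within each dye and -0.073 with loess. Without the filter on dim probes 5 members passed in limma, among them b6967_5_3, which was detected in 0 samples, with 2.92, beside 83.9% of all 4441 probes. With all spots averaged b6967_1_2 and b6967_1_4 passed, at 2.08 and 2.09, beside 35.4% of all probes. With the 75th percentile over all probes 11 members passed, all negative and all 11 detected in every sample, beside 34.9%. Without PO 1 or without A+LO 1 the count was 0, beside 0% and 5.72% of all probes, and without LO 8 or its A+LO partner it was 2, beside 28.4% and 32%.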

How the data were processed

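Per the file headers, the deposited values are spot intensities written by Agilent Feature Extraction 10.5.1.1. The deposited mean intensity and median local background were used, and the deposited background-subtracted and processed intensities only as alternatives. Each array holds 14080 spots, 13323 of them from the 4441 probes, with 3 spots each. Each dye was taken as 1 sample. In all, 12 value columns were not used: the 8 of a Cy3 channel that no listed sample matches, and the saturation marks of the 4 A+LO samples whose numbers differ.

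Background was corrected by normexp (offset 50), values were put on the log2 scale, spots marked as outliers were left out unless all were, and the sample's 75th percentile over the 405 probes detected in all samples was subtracted. The 1153 probes detected in at least 6 samples entered limma 3.58.1 (R 4.3.3), with 4 group means fitted over the 25 samples together, arrays as random blocks (estimated correlation 0.760) and Benjamini-Hochberg adjustment within each comparison. The fit was also run on simulated data with normally distributed errors. Those data had no values held at background, no scaling step and no disagreeing spots, so that run does not cover these features. Ranks and counts were computed in Python 3.11.15. The number of arrays limits the precision.

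Same-numbered PO and A+PO samples share an array, and their deviations from the group means correlated at 0.87 to 0.94.

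Named probes are the 3 highest and 3 lowest members by mean level and, per comparison, up to 2 higher and 2 lower past the test, or else the 2 with the smallest p; others are said to be chosen after their values were seen. The members, lists and tests were chosen with earlier results of these data known. The alternatives were other background corrections, scalings, filters, blocks, sample sets and spot rules.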

Additional observations from a re-analysis of the deposited data

Results flagged for a closer look

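Single samples far from the rest of their group were sought in 60 groups of values (the detected members, the median rank percentile and the levels of the named members, in each diet). Chance flags about 5% of such groups, many of these share samples, and 10 were found. No explanation was weighed.

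The array of LO 4 gave 4 of them. The A+LO sample there had 13 detected members, beside 16 to 17 in the other A+LO samples. Probe b6967_3_5 stood at -3.61 in that sample, beside -0.21 to 0.47, and at -2.74 in LO 4, beside -0.51 to 0.03 in the other LO samples. Probe b6967_5_2 stood at 0.78 in LO 4, beside -0.02 to 0.20. With all spots averaged these 3 levels were -0.72, -0.53 and -1.02.

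LO 3 gave a median rank percentile of 87.6, beside 93.3 to 95.9 in the other LO samples, and a b6967_3_4 level of -5.23, beside -0.04 to 0.47 (-3.47 with all spots averaged). A+PO 2 stood high within its group for 2 members that were otherwise detected only in PO 2, on the same array, with b6967_4_3 at -8.42, beside -12.88 to -11.65, and b6967_5_6 at -9.26, beside -12.84 to -11.71. In PO, b6967_4_1 stood at -3.17 in PO 3, beside -1.14 to -0.05, and b6967_3_1 at 0.075 in PO 5, beside -0.20 to -0.11.

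The interaction of b6967_1_2 passed the test at 3.13 on the log2 scale. It rests in part on levels at background, since both dyes detected the probe on 1 of 6 linseed arrays, and it turned to -0.55, -0.30 and -0.073 under other scalings.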

How the results depend on the processing

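No member passed between LO and PO under any of the 14 alternatives or 12 refits without 1 sample, and none between A+LO and A+PO without 1 sample or under 12 of 13 alternatives; the filter on dim probes was the exception, with 6 past the test in its absence. Between A+PO and PO the count was 1 with loess, 3 with the processed signal, 2 (higher) with the 75th percentile over all probes, 9 (higher) with median scaling, 0 with quantile scaling over all samples, 9 with that within each dye, 0 without the array block, and 9 with only the groups compared, with the replicate block, with all spots averaged and without the arrays of LO 4 and LO 11. Without 1 sample it ran from 2 to 5. Between A+LO and LO it was 3 with loess, 2 with the background-subtracted or the processed signal, 7 with the 75th percentile over all probes, 3 (higher) with median scaling, 11 with quantile scaling within each dye, 4 with all spots averaged, with the median of the spots and without both arrays, and 0 to 5 without 1 sample. The interaction gave 0 with the background-subtracted and processed signals, loess, median scaling, either quantile scaling or no array block, 11 (negative) with the 75th percentile over all probes, 5 without the filter, 2 with all spots averaged or the median of the spots, and 0 to 2 without 1 sample.

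Signs turned as follows: b6967_1_3 between LO and PO to 0.10 with median scaling; between A+PO and PO, with that scaling, b6967_1_2 to 0.74, b6967_1_4 to 1.14, b6967_2_1 to 0.73, b6967_4_1 to 0.69 and b6967_4_4 to 0.40, with loess b6967_1_2 to 0.14 and b6967_1_4 to 0.11, with quantile scaling over all samples b6967_1_2 to 0.10, b6967_1_4 to 0.15 and b6967_4_4 to 0.10, and with the 75th percentile over all probes b6967_1_4 to 0.13. The interaction of b6967_1_2 turned to -0.073 with loess, -0.55 with quantile scaling over all samples and -0.30 within each dye. The cause was not tested.

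Detection was 70.5% by the negative-control rule, 82.9% with the marked spots kept and 78.8% to 80.0% without 1 sample. The median rank percentile stayed between 93.1 and 93.5 throughout. As a replicate block, the numbers shared by LO and PO (3 pairs, correlations of -0.28 to 0.13, 1 sample pair best with its own number) and by A+LO and LO (2 pairs, -0.51) left both counts at 0. No paired analysis was possible for A+LO against A+PO because the settled numbers share only 1. Spots not well above background limit the dim members, as the number of arrays does all tests.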
